A study of Mus musculus with 8 samples.

Results

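The 30 genes examined here lie on mouse chromosome 16 on the centromere side of Sod1, the superoxide dismutase gene at which the extra segment of Ts1Cje mice begins. They were taken as every non-control probe whose RefSeq accession maps to a listed symbol. All 30 were found, on 42 of the 55681 probes, among 20660 named genes on the array. Of these, 27 have their human counterpart on chromosome 21, and Gbe1, Robo1 and Robo2 have theirs on human chromosome 3. In chromosome order they run from Gbe1 through Robo1, Robo2 and Lipi to Tiam1, so that Gbe1 and Robo1 lie just outside the stretch from Robo2 to Sod1 that the list is named for.

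Hippocampal RNA was hybridised to 8 one-colour arrays, 4 from mice labelled Ts1Cje and 4 labelled wild-type. All were 3 months old and C57BL6/J by their labels, and the series' text describes the animals as littermate pairs. Ts1Cje mice carry a translocation that adds a copy of distal chromosome 16, from Sod1 to Zbtb21. In this chromosome 1 copy of Sod1 is disrupted and the end of chromosome 12 is missing, so the model is not a pure gain of dosage. The question addressed here is whether transcripts of the neighbouring genes, which stay at 2 copies, differ between the genotypes. Levels are on a log2 scale on which 0 is the 75th percentile of an array's probes, unless stated, and a difference is always Ts1Cje minus wild-type. Levels of different probes cannot be compared. The labels do not tie arrays to litters or say how RNA was prepared, so p-values measure the spread between these 8 labelled samples, and their number limits every precision given.

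A gene present in 3 copies and transcribed in proportion would stand at 3 over 2 of its wild-type level, and a gene left at 2 copies at the wild-type level unless something else acts on it. Several mouse models of Down syndrome differ in where their extra segment starts: Ts65Dn is known to carry the genes from Mrpl39 on, and Dp(16)1Yey those from Lipi on, so that many genes in the present list are triplicated there and not in Ts1Cje. The list mixes adhesion and axon guidance receptors, ubiquitin and protein folding enzymes, transcription regulators, a glutamate receptor subunit and secreted proteases.

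The list holds Gabpa, which encodes the DNA-binding subunit of GABP, a factor of the ETS family that recognises the letters CCGGAAG. RefSeq windows of 300 bases around the start (250 before, 50 after; build GRCm38.p6) were at hand for 21 of the 30 genes. The letters CCGGAAG stood on either strand in a window of 4 of these 21 genes, Btg3, Gabpa, Usp16 and Cct8, against 9.93% of all 27025 genes with a window. The match of Btg3 does not lie wholly in the bases before the start. The next 3 sequences are shown because they hold those letters in the bases before the start, and capitals mark them. They are from Cct8 (chr16:87495870-87496119, minus strand), Usp16 (chr16:87454735-87454984, plus strand) and Gabpa (chr16:84834874-84835123, plus strand), each 250 bases written 5′ to 3′ on the strand of the gene.
Cct8: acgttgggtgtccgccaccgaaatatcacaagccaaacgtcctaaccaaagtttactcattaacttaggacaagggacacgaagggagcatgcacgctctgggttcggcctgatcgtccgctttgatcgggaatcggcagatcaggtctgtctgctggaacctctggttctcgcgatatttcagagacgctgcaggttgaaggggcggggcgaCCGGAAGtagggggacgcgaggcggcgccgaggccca
Usp16: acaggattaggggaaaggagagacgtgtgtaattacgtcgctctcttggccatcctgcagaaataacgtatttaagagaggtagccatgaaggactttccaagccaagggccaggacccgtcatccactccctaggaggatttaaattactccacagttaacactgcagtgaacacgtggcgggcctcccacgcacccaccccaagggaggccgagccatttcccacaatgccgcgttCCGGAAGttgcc
Gabpa: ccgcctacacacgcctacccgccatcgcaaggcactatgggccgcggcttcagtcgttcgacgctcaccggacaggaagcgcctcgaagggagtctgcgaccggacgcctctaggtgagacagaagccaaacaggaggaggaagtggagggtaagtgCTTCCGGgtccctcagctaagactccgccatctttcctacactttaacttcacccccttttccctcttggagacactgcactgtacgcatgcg
In Gabpa the letters are on the opposite strand. A match describes the letters and does not show binding.

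The 250 bases before Tmprss15 (chr16:79091098-79091347, minus strand) and Cldn17 (chr16:88506979-88507228, minus strand) are shown as examples of genes that were not detected, to set beside the windows of detected genes above.
Tmprss15: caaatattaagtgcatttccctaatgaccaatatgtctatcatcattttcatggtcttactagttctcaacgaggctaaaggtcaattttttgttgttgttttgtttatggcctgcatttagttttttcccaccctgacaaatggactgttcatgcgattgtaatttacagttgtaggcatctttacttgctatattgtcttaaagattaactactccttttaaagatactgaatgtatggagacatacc
Cldn17: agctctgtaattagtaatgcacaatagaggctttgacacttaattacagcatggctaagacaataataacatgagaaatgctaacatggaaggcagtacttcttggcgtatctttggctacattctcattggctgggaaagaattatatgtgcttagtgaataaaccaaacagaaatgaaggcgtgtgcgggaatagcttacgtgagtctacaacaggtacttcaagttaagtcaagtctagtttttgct
Over the 300-base windows, Tmprss15 had 3 CG pairs, and Cldn17 and Chodl had 6 each, where the median of all 32851 windows is 7. For the 18 detected genes with a window, the richest window of each gene held 5 to 54 CG pairs with a median of 17.5. Of these, 16 held more than any of the 3 undetected genes, and Samsn1 (5) and Cyyr1 (6) did not. This is a description of 21 genes, with no test.

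None of the listed genes differed past the threshold between the genotypes. Of the 30, 23 were detected well above background on all 8 arrays and were tested, and 0 of the 23 passed an adjusted p of 0.05 in either direction (limma, Benjamini-Hochberg over 24025 features; lowest adjusted p = 0.486). Over all features 0.196% passed, and the 0 of 23 is read against that share. Unadjusted, 3 of the 23 (Bach1, Usp25 and Gabpa, all below 0) had a limma p under 0.05, against 8.73% of all features. The arrays of the genotypes did not overlap for 2 of the 23 (Bach1 and Usp25), against 6.12% of all features. The count over all features depended on single arrays: it was 47 with all 8 and fell to 4 when Ts1Cje replicate 4 was left out. Leaving out replicate 2 of Ts1Cje gave 17, replicate 3 of Ts1Cje 25, and either replicate 2 or replicate 4 of wild-type 24. The count of listed genes was 0 in each of these settings.

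The intervals bound the size of each difference. For 22 of the 23 genes (95.7%), the 95% interval of the log2 fold change lay wholly below 0.58, the log2 of 3 over 2. Over all features this held for 90.3%, so such intervals are common here and not particular to the listed genes. Cyyr1 was the exception, with an interval from -0.26 to 0.66. The intervals of 20 genes held 0, and those of Bach1, Usp25 and Gabpa lay below it. This depended on single arrays: without Ts1Cje replicate 3 the intervals of Bach1, Usp25 and Gabpa held 0, with upper ends of 0.0015, 0.0025 and 0.025. The interval of Usp25 also held 0 without Ts1Cje replicate 1 (upper end 0.017), and that of Bach1 without Ts1Cje replicate 4 (0.0067). With 1 array left out, the interval of Gabpa stayed below 0 only without Ts1Cje replicate 2 or wild-type replicate 4. With the replicate block, that of Gabpa held 0 (-0.33 to 0.023), and those of Bach1 and Usp25 stayed below it. The fold changes ran from -0.21 (Rbm11) to 0.20 (Cyyr1) with a median of -0.057, where the median of all features was -0.0072. The median of their sizes, without sign, was 0.11 against 0.075 for all features. The median of the 23 moved to -0.093 when Ts1Cje replicate 3 was left out and to -0.087 when wild-type replicate 2 was.

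**Figure D1:**
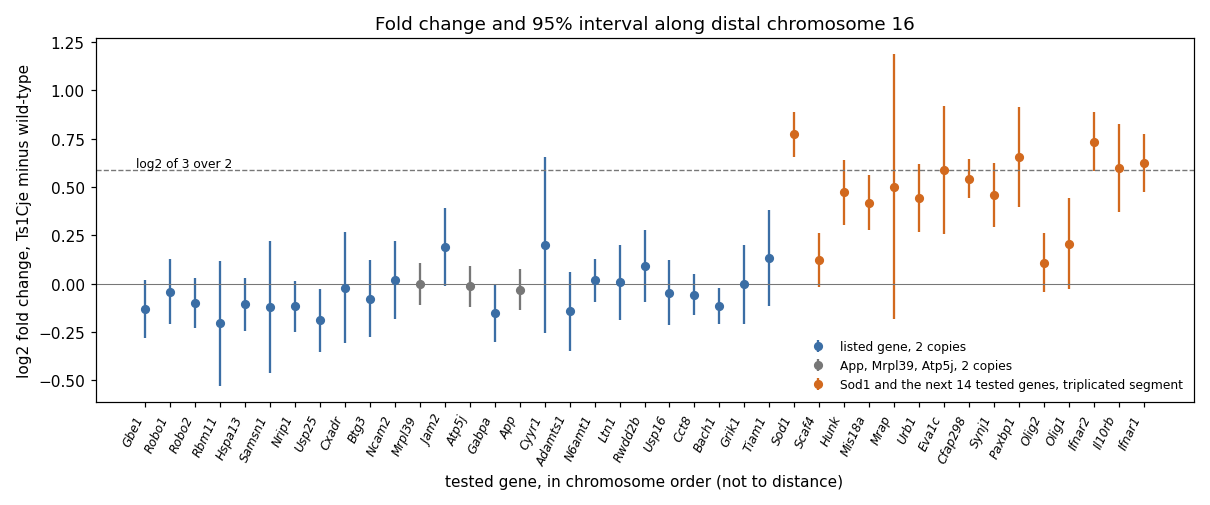
Log2 fold change (Ts1Cje minus wild-type, vertical axis) with 95% interval for tested genes in chromosome order, for the 23 listed genes (blue), App, Mrpl39 and Atp5j (grey) and Sod1 with the next 14 tested genes of the triplicated segment (orange). The listed genes lie between -0.21 and 0.20, and Sod1, the next tested gene after Tiam1, lies at 0.77.

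At the border of the triplicated segment, Tiam1, the last listed gene, stood at 0.13 (95% interval -0.12 to 0.38), and Sod1 at 0.77 (0.66 to 0.89; 1.71-fold, limma adjusted p = 0.0032). This Sod1 value is that of a gene whose extra copy is described as disrupted, and where its probe lies relative to the disruption was not analysed here. Scaf4, the tested gene after Sod1, stood at 0.12 (-0.015 to 0.26), within the range of the listed genes. Of the 64 tested genes from Sod1 to the chromosome end, 61 were above 0, 26 passed as higher, against 0.175% of all features, and 0 as lower, their median was 0.49, and the intervals of 16 lay below 0.58. The 26 calls depended on single arrays: 1 passed when Ts1Cje replicate 4 was left out, 10 without Ts1Cje replicate 2, 13 without replicate 4 of wild-type, 14 without replicate 3 of Ts1Cje and 15 without replicate 2 of wild-type. The median of the 64 stayed between 0.48 and 0.50 with any 1 array left out, and 61 or 62 were above 0. The step between the lists was not tested as a list score. Among unlisted 2-copy neighbours, the amyloid precursor gene App stood at -0.031 (-0.14 to 0.075), the mitochondrial ribosomal gene Mrpl39 at -0.0038 (-0.11 to 0.10) and the ATP synthase gene Atp5j at -0.015 (-0.12 to 0.092). With these 3, the unlisted tested genes of the interval numbered 15, with a median of -0.0038, a range from -0.66 to 1.01 and 0 calls. The ends of that range were Krtap19-2 (SE 0.61) and 2310079G19Rik (SE 0.61), named after their values were seen, and only for these 2 did the interval reach above 0.58. The arrays did not overlap for 1 of the 15, Mir99ahg (-0.20, SE 0.068), also named after its value was seen.

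**Figure D2:**
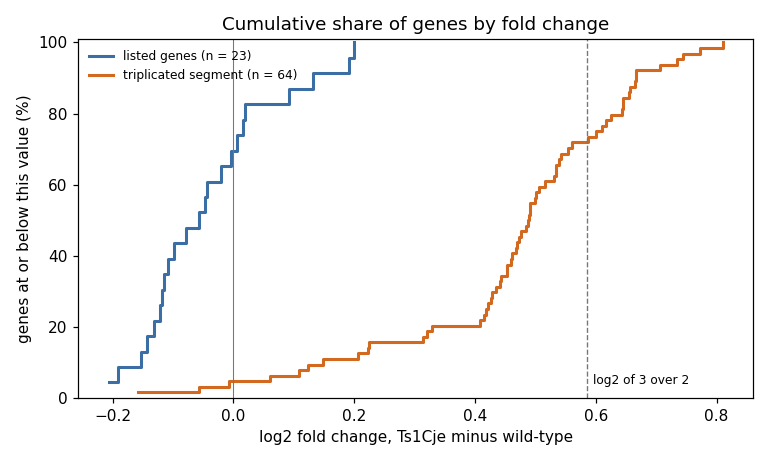
Share of genes (vertical axis, %) at or below each log2 fold change (horizontal axis) for the 23 listed genes and the 64 tested genes of the triplicated segment. The listed genes end at 0.20, while the triplicated genes have their median at 0.49.

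Of the adhesion and guidance genes of the list, 5 were tested and 0 passed, with a median of -0.021. Robo1 and Robo2 encode receptors for the Slit guidance ligands. Robo1 read 1.57, 1.80, 1.62 and 1.79 in wild-type and 1.57, 1.62, 1.65 and 1.78 in Ts1Cje. These ranges lay over each other, with a difference of -0.043 (SE 0.073, limma adjusted p = 0.873). Robo2 read 1.38, 1.30, 1.24 and 1.31 in wild-type and 1.12, 1.20, 1.31 and 1.19 in Ts1Cje, a difference of -0.099 (SE 0.056, limma adjusted p = 0.647). Ncam2, an immunoglobulin adhesion molecule known from olfactory axons, read -0.66, -0.84, -0.66 and -1.04 in wild-type and -0.78, -0.72, -0.79 and -0.83 in Ts1Cje, so the Ts1Cje arrays lay inside the wild-type range (difference 0.019, SE 0.088). Cxadr, a junctional receptor also used by coxsackie viruses and adenoviruses, read 1.68, 1.27, 1.65 and 1.27 in wild-type and 1.34, 1.44, 1.66 and 1.35 in Ts1Cje. The groups overlapped, with a difference of -0.021 (SE 0.12).

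Jam2, a junctional adhesion molecule of endothelium, read 0.73, 0.46, 0.34 and 0.34 in wild-type and 0.68, 0.68, 0.66 and 0.61 in Ts1Cje. Wild-type replicate 1 lay above all 4 Ts1Cje arrays and the other 3 lay below them, so the groups overlapped through that array. The difference was 0.19 (95% interval -0.011 to 0.39, limma adjusted p = 0.591), or 0.28 without wild-type replicate 1 (adjusted p = 0.199, the lowest of any listed gene in any setting tried). Its dimmer probe gave 0.049 (SE 0.12). Of 5 endothelial marker genes, 0 passed, 3 were above 0 and 2 below, and their median difference was 0.058. Their summed linear levels, in which bright genes weigh most, ran from 34.7 to 42.6 in wild-type and from 40.3 to 63.1 in Ts1Cje. The part of these markers in the value of Jam2 was not tested. In tissue RNA of this kind, a change in the number of cells and a change of RNA per cell cannot be told apart.

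**Figure D3:**
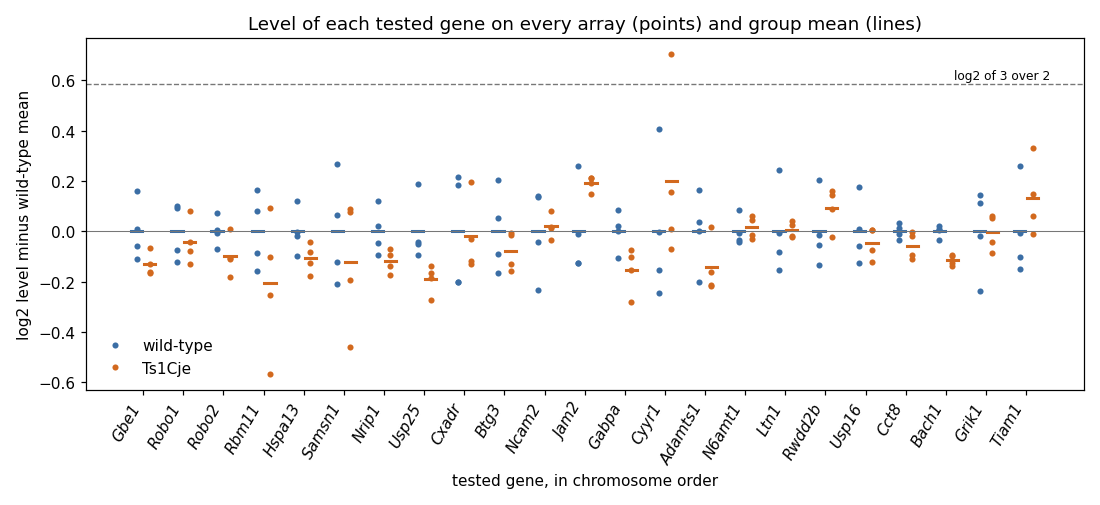
Level of each tested gene on each array as the difference from its wild-type mean (vertical axis, log2), in chromosome order, with points for the 4 arrays of each genotype and lines for the means. Only Bach1 and Usp25 show groups that do not overlap, and 1 Ts1Cje array of Cyyr1 lies above the line at the log2 of 3 over 2.

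The group set up for ubiquitin and protein folding, in which Rwdd2b was also placed, held 6 tested members with a median of -0.052. Whether Rwdd2b acts in either was not examined. Usp25, which encodes a deubiquitinase, read 0.70, 0.75, 0.99 and 0.75 in wild-type and 0.53, 0.66, 0.61 and 0.63 in Ts1Cje. Every Ts1Cje array lay below every wild-type array, by a difference of -0.19 (SE 0.071, or 0.876-fold, limma adjusted p = 0.509). The dimmer Usp25 probe gave -0.094 (SE 0.087), with overlapping arrays. Usp16, a deubiquitinase that acts on histones, read 2.76, 2.69, 2.62 and 2.92 in wild-type against 2.63, 2.75, 2.75 and 2.67 in Ts1Cje, with a difference of -0.047 (SE 0.073).

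Cct8, a subunit of the cytosolic chaperonin that folds actin and tubulin, was measured with little spread, at 3.20, 3.15, 3.22 and 3.18 in wild-type and 3.18, 3.08, 3.09 and 3.17 in Ts1Cje. Its difference was -0.057 (95% interval -0.16 to 0.048). Ltn1, the ubiquitin ligase of ribosome quality control, stood at -1.17 ± 0.17 in wild-type and -1.16 ± 0.032 in Ts1Cje (SD, n = 4 each). Hspa13, a relative of the heat shock proteins, stood at 1.88 ± 0.089 and 1.77 ± 0.058 (SD, n = 4 each), and its difference of -0.11 stood beside -0.13 on its dimmer probe. Rwdd2b read -0.15, -0.031, 0.19 and -0.070 in wild-type and 0.076, -0.037, 0.13 and 0.14 in Ts1Cje, with overlapping groups and a difference of 0.093 (SE 0.081).

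Of the 6 tested regulators of transcription, RNA and translation, 5 were below 0, with a median of -0.12, and 0 passed the adjusted threshold. Over all 24025 features, 12653 were below 0. Bach1, a haem-sensing repressor of antioxidant genes, read 0.15, 0.15, 0.16 and 0.11 in wild-type and 0.049, 0.047, 0.017 and 0.0046 in Ts1Cje. The groups did not overlap, yet the difference was only -0.11 (SE 0.040, 0.924-fold, limma adjusted p = 0.486), and its spread between arrays was smaller than that of all but 0.246% of features. Without single arrays and in the other settings its value stayed between -0.16 and -0.10.

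Gabpa read -0.29, -0.31, -0.22 and -0.42 in wild-type and -0.59, -0.38, -0.46 and -0.41 in Ts1Cje. The groups overlapped at wild-type replicate 4, with a difference of -0.15 (SE 0.065, limma adjusted p = 0.569). Its dimmer probe did not share this value: it gave 0.023 (95% interval -0.19 to 0.24), with -1.55 ± 0.17 in wild-type and -1.52 ± 0.093 in Ts1Cje (SD, n = 4 each). Nrip1, a corepressor of nuclear receptors, stood at 1.56 ± 0.092 and 1.45 ± 0.046 (SD, n = 4 each; difference -0.12). Btg3, of an antiproliferative family, stood at 3.90 ± 0.16 and 3.82 ± 0.078 (SD, n = 4 each; difference -0.079).

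N6amt1, the catalytic subunit of a methyltransferase that modifies a translation release factor, stood at 0.40 ± 0.057 in wild-type and 0.42 ± 0.044 in Ts1Cje (SD, n = 4 each). It gave the narrowest of the intervals that held 0 after Cct8, from -0.096 to 0.13 around 0.016. The splicing regulator Rbm11 was dim and varied more: it read -3.38, -3.06, -3.14 and -3.31 in wild-type and -3.13, -3.79, -3.47 and -3.32 in Ts1Cje. Its value of -0.21 had an interval from -0.53 to 0.12, and the groups overlapped. It was -0.087 when Ts1Cje replicate 2 was left out.

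Signalling genes were few. Grik1 encodes a kainate receptor subunit that hippocampal interneurons are known to express. It read -1.12, -1.34, -0.96 and -0.99 in wild-type and -1.14, -1.04, -1.05 and -1.19 in Ts1Cje, so the Ts1Cje arrays lay within the wild-type range (difference -0.0034, SE 0.089). Tiam1, an activator of the GTPase Rac, read 0.31, 0.41, 0.67 and 0.26 in wild-type and 0.56, 0.48, 0.75 and 0.40 in Ts1Cje. The groups overlapped, with a difference of 0.13 (SE 0.11).

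Cyyr1, a small membrane protein gene, read -2.35, -2.91, -3.00 and -2.75 in wild-type and -2.05, -2.74, -2.82 and -2.60 in Ts1Cje. Replicate 1 was the highest array in each genotype and the groups overlapped. Its difference of 0.20 (SE 0.20) had an interval that held both 0 and 0.58. The value was 0.031 when Ts1Cje replicate 1 was left out and 0.33 when wild-type replicate 1 was. With the replicate block the SE was 0.048 and the interval ran from 0.077 to 0.32 (limma adjusted p = 0.333). Samsn1, an adaptor of blood and immune cells, was also dim, at -3.32 ± 0.21 and -3.44 ± 0.26 (SD, n = 4 each; difference -0.12).

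Of the secreted proteases and metabolic enzymes, Gbe1 and Adamts1 were detected. Gbe1, the glycogen branching enzyme, read 0.61, 0.56, 0.83 and 0.68 in wild-type and 0.60, 0.50, 0.54 and 0.51 in Ts1Cje. The groups overlapped because wild-type replicate 2 lay among the Ts1Cje arrays, and the difference was -0.13 (SE 0.066, limma adjusted p = 0.613). Adamts1, a protease of matrix proteoglycans, read 0.45, 0.29, 0.32 and 0.087 in wild-type and 0.073, 0.13, 0.30 and 0.077 in Ts1Cje, with a difference of -0.14 (SE 0.089).

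The other 7 genes had no probe that cleared the background mark throughout a genotype, so they were not tested and have no fold. These were Adamts5, a matrix protease, Tmprss15, the gut enzyme enteropeptidase, the claudins Cldn8 and Cldn17, Chodl, a membrane lectin, Lipi, a lipase, and Map3k7cl. Chodl, Tmprss15, Cldn8 and Map3k7cl were below that mark on all 8 arrays by every probe. Lipi passed it on 1 wild-type array, and Adamts5 and Cldn17 on 1 Ts1Cje array each. A further probe each of Cxadr and Ncam2 was also dim on all 8 arrays, although another probe of the same gene was detected on all 8. The 2 probes of Cxadr carry different RefSeq accessions of the gene. Over the 12 dim probes, values ran from -7.43 to -4.71, where the lowest signal marked as well above background was between -5.48 and -4.90 on the 8 arrays.

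**Figure D4:**
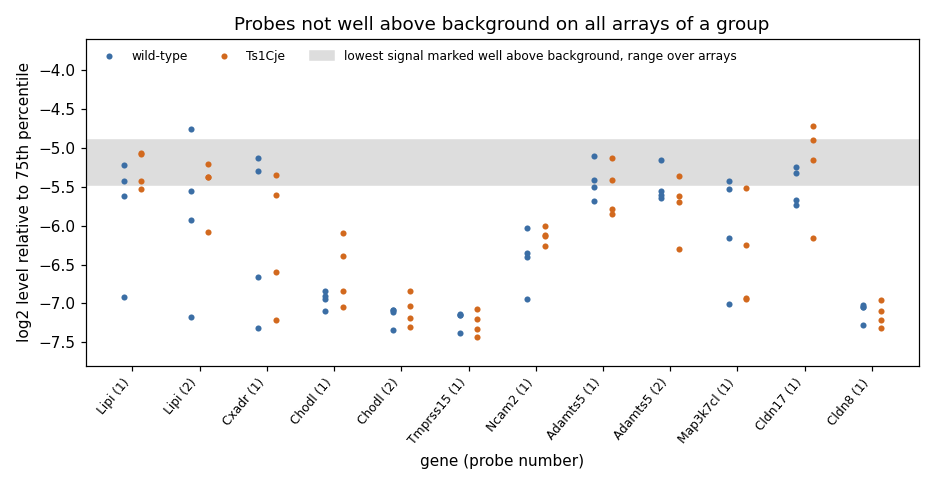
Level (log2 relative to the 75th percentile, vertical axis) on each array of the 12 probes that failed the background mark in both genotypes. The grey band is the range over the 8 arrays of the lowest signal marked as well above background, -5.48 to -4.90, and the probes of Chodl, Tmprss15 and Cldn8 and the dim probe of Ncam2 lie below it on every array.

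Reading every probe also gave 0 calls, but not the same values for each gene. With the mean over the kept probes of a gene, 22 of the 23 intervals held 0, in place of 20 with the brightest. In that setting Usp25 stood at -0.14 and Gabpa at -0.065. Of the 42 probes, 30 passed the filter, and 0 of the 30 passed an adjusted p of 0.05 over the 32596 kept probes, where 0.187% of all kept probes did (lowest limma adjusted p = 0.527). Unadjusted, 3 of the 30 had a limma p under 0.05, against 8.44% of kept probes. In 7 genes more than 1 probe was kept, and for 5 of them the signs were equal. In Robo2 (-0.099 and 0.027) and Gabpa (-0.15 and 0.023) they were opposite, and each dimmer probe had an interval that held 0. The largest gap between probes of a gene was 0.18, in Gabpa, and the smallest 0.011, in Ncam2. Probes of a gene share its RNA and are not replicates.

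**Figure D5:**
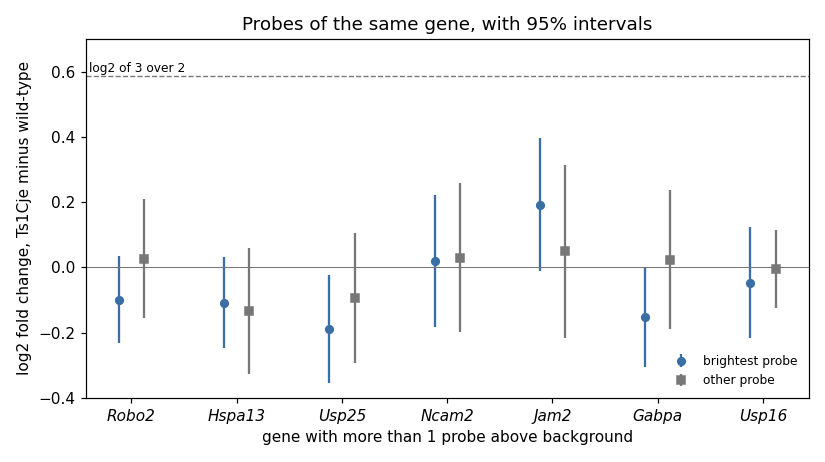
Log2 fold change (Ts1Cje minus wild-type, vertical axis) with 95% interval for the brightest probe (blue circles) and the other kept probe (grey squares) of the 7 genes with more than 1 kept probe. All 14 values lie between -0.19 and 0.19, below the line at the log2 of 3 over 2.

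Over all 24025 features, 12653 were below 0. Along the chromosome, the 11 tested genes from Gbe1 to Ncam2 had a median of -0.11, and 10 of them were below 0. The 12 from Jam2 to Tiam1, which Ts65Dn carries in 3 copies, had a median of 0.0014, with 6 below 0. This split was not tested, and 0 genes passed in either stretch. With the array median as the centre, all features shifted to a median of -0.058, the listed genes stood at -0.11, and 19 of the 23 were below 0 in place of 16. Another centre shifts every fold change alike. The listed median relative to all features, -0.050, was therefore bound to be equal under both centres.

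The spread of the listed genes was unequal between the genotypes. For 17 of the 23 the SD over the wild-type arrays was larger than over the Ts1Cje arrays, as it was for 59.7% of all features. The median SD was 0.14 in wild-type and 0.073 in Ts1Cje, against 0.12 and 0.099 for all features. Wild-type replicate 3 was the highest of the 8 arrays for 13 of the 23 genes. For what share of all features it was the highest was not counted. The median deviation of the listed genes from their own means was 0.15 on that array, where that of all features was -0.023. Without this array the median log2 fold change of the 23 was -0.067.

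Partner genes of the listed proteins, elsewhere in the genome, were read from 11 lists. Of 87 tested partners, 0 passed the adjusted threshold (lowest limma adjusted p = 0.188), and 9 had an unadjusted p under 0.05, again beside 8.73% of all features. Medians of the lists ran from -0.11 for the other chaperonin subunits to 0.045 for the lecticans and relatives of the Adamts proteases. All 7 tested chaperonin subunits were below 0, also with normexp and quantile normalization, and 0 passed. The array median as the centre lowers every fold change alike, so with it they could only stay below 0. Among these subunits Cct3 stood at -0.13 (SE 0.048) and Cct7 at -0.11 (SE 0.043), beside the -0.057 of Cct8 itself. Slit2, a ligand of the Robo receptors, stood at -0.17 (SE 0.050, limma adjusted p = 0.384), and 6 of the 8 tested Slit and Robo partners were below 0. These counts below 0 stand beside 12653 of all 24025 features in the main fit.

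For the 13 tested partners and targets of Bach1, the median was 0.021 and 7 were above 0; Nfe2l2, which encodes the activator that competes with Bach1, stood at 0.22 (SE 0.10). The GABP partners and mitochondrial targets had a median of -0.021, and Tfb1m, a mitochondrial ribosomal RNA methyltransferase gene, stood at 0.17 (SE 0.049, limma adjusted p = 0.404). The 6 other kainate receptor and auxiliary subunit genes had a median of -0.067, and the ribosome quality control partners of Ltn1 one of -0.0053. The 8 tested glycogen genes had a median of 0.0012. Among them Ppp1r3c, a targeting subunit for glycogen synthase phosphatase, stood at -0.39 (SE 0.082, limma adjusted p = 0.188), and Pygm, a glycogen phosphorylase, at 0.53 (SE 0.14, limma adjusted p = 0.341). The arrays of the genotypes did not overlap for these 2 of the 8, which were named by their small p, beside 6.12% of all features. The tight junction, Rac signalling and immunoglobulin adhesion lists had medians of 0.036, 0.0085 and -0.051.

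The arrays were alike in quality: between 59.9% and 63.1% of probes were well above background and 0 spots were saturated. All 5 markers of hippocampal neurons were detected (median difference -0.13, range -0.25 to 0.30; the arrays did not overlap for 3 of the 5, 1 higher and 2 lower in Ts1Cje, beside 6.12% of all features), and of 49 markers of 11 cell types and regions 48 were tested and 0 passed. Ependymal markers had summed linear levels of 5.37 to 7.09 in wild-type and 4.55 to 5.48 in Ts1Cje, choroid plexus markers 2.46 to 5.88 and 2.90 to 4.25. All 4 ependymal markers were below 0 (median -0.37), and the arrays did not overlap for 1 of them. Of the 6 choroid plexus markers 5 were below 0 (median -0.086). Oligodendrocyte markers summed to 187 to 195 in wild-type and 140 to 206 in Ts1Cje, with 2 of the 4 below 0. All 8 arrays lay on 1 slide and in 1 scan, where wild-type filled columns 1 and 3 and Ts1Cje columns 2 and 4, so position across the slide and genotype cannot be told apart. Within slide row 1 (replicates 1 and 2) the listed median was -0.048, and within row 2 (replicates 3 and 4) it was -0.060. Each row held equal numbers of both genotypes, so a row block could not change the listed median of -0.057. In each of these 3 fits 0 of the 23 genes passed.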

How the data were processed

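Cy3-labelled hippocampal RNA of 8 mice was read on 1 array per sample. Per the file headers, Agilent Feature Extraction 10.10.1.1 read the spots, on a design made on mm9. The deposited files give a linear intensity for every spot, corrected for background by that software and not normalized between arrays.

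Spots with an outlier flag and control spots were left out. The log2 processed signal was averaged per probe and each array's 75th percentile over 55681 probes was subtracted. A probe was kept (32596 were) where all 4 arrays of at least 1 genotype marked it as well above background. Names came from RefSeq accessions (GRCm38.p6 table; 27235 probes matched, its coordinates used only for order). Each of 24025 features was represented by its brightest kept probe. The comparison used limma 3.58.1 under R 4.3.3 (lmFit, eBayes, no block), with Benjamini-Hochberg adjusted p-values and moderated 95% intervals. Every kept probe was also fitted. The fit was tested on simulated data. All listed genes are named whatever their values, with Sod1, Scaf4, App, Mrpl39 and Atp5j (named Atp5pf in newer annotation), and at most 2 partners per list by smallest p. The genes and lists were chosen with earlier results of these data known. Alternatives were normexp (offset 50, on median signals), quantile normalization, another centre, other filters and probe rules, array weights, another variance prior, blocks and left-out arrays. Plots used matplotlib 3.10.9 in Python 3.11.15 with pandas 2.3.3.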

Additional observations from a re-analysis of the deposited data

Results flagged for a closer look

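In 48 sets of 4 arrays (each tested gene in each genotype, and the mean over the 23 genes), no array stood apart from the other 3 by Dixon's ratio of gap to range at its 95% critical value, where chance would give 2.4.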

How the results depend on the processing

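Over 20 alternatives, the count of listed genes past the threshold stayed at 0, as did that of their probes in the 19 alternatives that fit probes, and the intervals below 3 over 2 numbered 22 to 25 (25 of 30 genes with no filter on dim probes). The lowest adjusted p of a listed gene was 0.199. Their median of -0.057 moved by more than the spread of the array means (0.047) with the array median as the centre, to -0.11, where all features moved to -0.058. It ran from -0.093 to -0.039 with 1 array left out. Of 460 single-gene values, 9 moved by more than the SD between replicates and 29 took the other sign, none of them past the threshold. A total of 14 of the 23 genes kept their sign throughout. The 460 include settings that could not change these fold changes, namely both blocks and the other variance prior. Both other filters also left the values of the 23 genes as they were.

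The count over all features moved more: from 47 to 25 with the array median as the centre, 23 with no filter on dim probes, 84 with array weights, 71 with the trended and robust variance prior, 4 to 44 with 1 array left out, and, chosen after seeing the data, 0 within slide row 1 and 4 within slide row 2, which use 2 arrays a genotype. The causes of these moves were not tested. Fitting the replicate block left 1 call over all features. The listed genes had 0 calls and 23 intervals below 3 over 2. Their median of -0.057 could not change, since each number has 1 array of each genotype. In that fit Cyyr1 had an interval from 0.077 to 0.32 (limma adjusted p = 0.333), above 0 and below 3 over 2, and 0 of the 64 triplicated genes passed. The labels do not say what equal numbers share. Deviations of same-numbered arrays from their group means correlated at 0.24, 0.19, 0.11 and 0.050 over 24021 features. Between arrays of unequal number the correlations ran from -0.26 to 0.14. Wild-type replicate 4 and Ts1Cje replicate 3 correlated best with each other, and every other array with its own number. Dim probes limit the 7 undetected genes, and in the fit without a block spread limits Cyyr1.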
